A study of Mus musculus with 74 samples.

Results

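The genes described here are the 41 autosomal genes whose transcript fell in XY gonads between E11.0 and E12.0 while it changed little in XX gonads, of 15873 autosomal genes that could be taken. For each gene the probe with the highest mean over all 74 arrays was used. A gene was taken when its mean at E12.0 was at least 0.6 below its mean at E11.0 on the log2 scale in XY gonads, which is a 1.52-fold fall, and when the XX change lay between -0.25 and 0.25, each averaged over both strains. Hox and collagen genes and a few others were set aside by name, among them 3 that met these limits (Gbp2b, Kyat3 and Msx1). Of the rest, 130 fell this far in XY gonads whatever XX gonads did, and 41 of them stayed within the XX limits. The genes were thus selected on the measured E11.0 and E12.0 levels. For that reason values at those stages are given as a description, and the tests use the 49 arrays of E11.2, E11.4, E11.6 and E11.8, which the choice used only to pick the brightest probe of a gene.

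The study profiled gonads, freed of the mesonephros, from wild-type XX and XY embryos of 2 inbred mouse strains, 129S1/SvImJ (129S1) and C57BL/6J (B6), of which B6 is the one prone to XY sex reversal. Embryos were staged by counting tail somites, and the 6 stages ran from E11.0 to E12.0 at intervals of 4.8 h. RNA from the gonads of a single embryo went onto each of 74 Illumina arrays, 36 XX and 38 XY, with 37 from each strain. There were 24 groups, mostly of 3 arrays, but the E11.0 group of 129S1 XY had 5 and its E12.0 group 2, and B6 XY had 4 at E11.2. Levels are log2 values that the authors quantile normalized, so every array had a median of 7.40. Xist and Eif2s3y separated all XX from all XY arrays without overlap. An array of B6 XY at E11.2 (replicate 1) deviated most from its group, and an array of 129S1 XY at E11.6 (replicate 2) stood above its group in the mean of 28 measured hypoxia and glycolysis genes, at 10.46 against a lowest value of 9.64. Some counts are given with and without 1 of these arrays. In a whole gonad, fewer cells of a type and less RNA per cell cannot be told apart.

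The gonad starts out bipotential in both sexes. In XY gonads Sry starts the Sertoli cell program, which then represses the ovarian program, whereas in XX gonads Wnt4, Rspo1 and Foxl2 promote the ovarian fate. A gene that falls in XY gonads, while XX gonads keep the level both sexes shared, differs between the sexes through loss in XY. The XX limits compared E12.0 with E11.0 only, averaged over the strains. At stages between, XX levels of some genes also rose, as given below for Fam83g, Pisd-ps2 and Acss1 at E11.6 in 129S1. How much of a sex difference came from XX was not tested. Among the 41 genes are inhibitors of the cell cycle, enzymes of mitochondrial and redox metabolism, chromatin and transcription regulators, growth factors and receptors, channels, and proteins of the cytoskeleton and of cell junctions.

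The 41 genes lay on 17 autosomes, with at most 6 on 1 chromosome. Their mean level over all arrays ranged from 7.97 to 14.55 with a median of 9.69, against 7.39 for the median probe, and all 41 lay above it. The mean XY fall from E11.0 to E12.0 ranged from 0.60 to 1.62 on the log2 scale, or from 1.52-fold to 3.07-fold, and the median change was -0.71 in XY and -0.07 in XX. The median XY change was -0.89 in 129S1 and -0.59 in B6, and the fall was the larger one in 129S1 for 37 of the 41. The change reached -0.6 in 39 genes in 129S1 and in 17 genes in B6, and in 15 in both strains. Within a strain the XX change could pass 0.25 in either direction, as for Ccdc80 in 129S1 (0.54) and Meis1 in B6 (-0.46). The XY and XX limits were both met in each strain by 11 of the genes. Since the mean of the strains chose the genes, these figures are a description. Just inside the XY limit were Kif3c at -0.60, Tpi1 at -0.60 and Bmerb1 at -0.61, and just outside it Smad6 at -0.59, Laptm5 at -0.59 and Minar2 at -0.59. At the upper XX limit, Bmerb1 (0.24), Kdm3a (0.21) and Fam83g (0.20) were inside and Edn2 (0.28), Bag3 (0.32) and Olfm1 (0.35) outside, and at the lower limit Dapk1 (-0.24), Meis1 (-0.23) and Mpo (-0.23) were inside and Insyn1 (-0.26), Spon2 (-0.26) and Sphkap (-0.27) outside.

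Promoters are shown for 4 of the genes whose course is described below: Cdkn1a, Acss1 and Fam83g, which differed between the sexes from E11.6 in 129S1, and Igf1, which differed at E11.8 in both strains. The sequences are RefSeq windows of 300 bases, 250 before and 50 after a transcript start, on GRCm38.p6, read 5′ to 3′ on the strand of the gene. Capitals mark matches, on either strand, to any of the motifs searched. The hypoxia response element was searched by its cores ACGTG and GCGTG. The binding letters of TCF/LEF factors were taken as ATCAAAG. Those of SOX factors were taken as ACAATG. The orphan receptor NR5A1 was searched by the letters CAAGGTCA. Zinc finger factors such as Gata6 were searched by the letters AGATAA. A palindrome of the first core is found on both strands, and otherwise a motif was counted once per window. Cdkn1a has 2 annotated starts and both are shown.
Cdkn1a, chr17:29090729-29091028, plus strand: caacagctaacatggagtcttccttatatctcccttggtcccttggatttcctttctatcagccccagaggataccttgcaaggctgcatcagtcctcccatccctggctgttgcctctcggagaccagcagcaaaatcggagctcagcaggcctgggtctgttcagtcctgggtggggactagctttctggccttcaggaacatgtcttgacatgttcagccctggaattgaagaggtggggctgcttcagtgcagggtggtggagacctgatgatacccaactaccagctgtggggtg
Cdkn1a, chr17:29093519-29093818, plus strand: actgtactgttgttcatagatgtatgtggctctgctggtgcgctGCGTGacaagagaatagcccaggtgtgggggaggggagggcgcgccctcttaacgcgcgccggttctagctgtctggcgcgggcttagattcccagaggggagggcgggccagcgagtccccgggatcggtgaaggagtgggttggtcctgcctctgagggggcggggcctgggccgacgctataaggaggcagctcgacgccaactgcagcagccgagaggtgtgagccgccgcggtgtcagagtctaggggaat
Acss1, chr2:150668191-150668490, minus strand: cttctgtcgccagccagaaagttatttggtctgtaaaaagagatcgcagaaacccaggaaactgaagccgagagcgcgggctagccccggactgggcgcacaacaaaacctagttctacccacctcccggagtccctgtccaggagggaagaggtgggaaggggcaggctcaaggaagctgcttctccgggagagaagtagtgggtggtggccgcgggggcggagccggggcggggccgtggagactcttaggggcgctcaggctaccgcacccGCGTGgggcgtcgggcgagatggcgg
Fam83g, chr11:61684160-61684459, plus strand: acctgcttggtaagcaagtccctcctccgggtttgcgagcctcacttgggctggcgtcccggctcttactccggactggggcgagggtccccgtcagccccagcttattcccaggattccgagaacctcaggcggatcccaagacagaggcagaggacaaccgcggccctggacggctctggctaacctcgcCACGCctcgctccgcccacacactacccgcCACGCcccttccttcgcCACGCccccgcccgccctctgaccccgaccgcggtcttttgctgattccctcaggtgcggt
Igf1, chr10:87860861-87861160, plus strand: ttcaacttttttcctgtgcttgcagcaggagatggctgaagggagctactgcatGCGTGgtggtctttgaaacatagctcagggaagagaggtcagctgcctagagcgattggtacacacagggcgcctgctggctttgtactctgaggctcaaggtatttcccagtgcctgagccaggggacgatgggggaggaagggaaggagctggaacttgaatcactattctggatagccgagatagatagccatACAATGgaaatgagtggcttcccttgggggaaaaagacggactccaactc
RefSeq held windows for 32 of the 41 genes, 44 windows in all. The core GCGTG was present in 21 of the 44 (47.7%) against 32.4% of 32851 windows of all genes, and the core ACGTG in 7 (15.9%) against 19.6%. The SOX letters were present in 4 (9.09%) against 12.6% and the TCF/LEF letters in 1 (2.27%) against 3.73%. The NR5A1 letters were in 0 of the 44, against 1.56% of all windows, and the last motif was also in 0, against 3672 of the 32851. These are matches of letters in a short window and were not tested.

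To find when the levels parted in arrays that the choice did not use, XY was compared with XX in each strain with limma, with p-values adjusted over all 25697 probes. At E11.2 and E11.4, 0 of the 41 genes were lower in XY gonads past an adjusted p of 0.05 in either strain. The share of all probes called lower was 0.00778% in 129S1 at both stages, and 0.0156% and 0.00778% in B6, and between 0 and 3 of the genes had an unadjusted p under 0.05. At E11.6, 6 genes were lower in 129S1 XY gonads, against 0.21% of all probes, and 0 in B6, where 0.0195% of probes were called and 2 genes had an unadjusted p under 0.05. At E11.8, 19 were lower in 129S1, against 0.732% of probes, and 7 in B6, against 0.475%. None of the genes was higher in XY past the test at these stages in either strain. The median XY minus XX difference over the 41 genes moved from -0.02 at E11.2 through -0.09 and -0.28 to -0.50 at E11.8 in 129S1, and from -0.04 through -0.06 and -0.09 to -0.32 in B6.

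**Figure D1:**
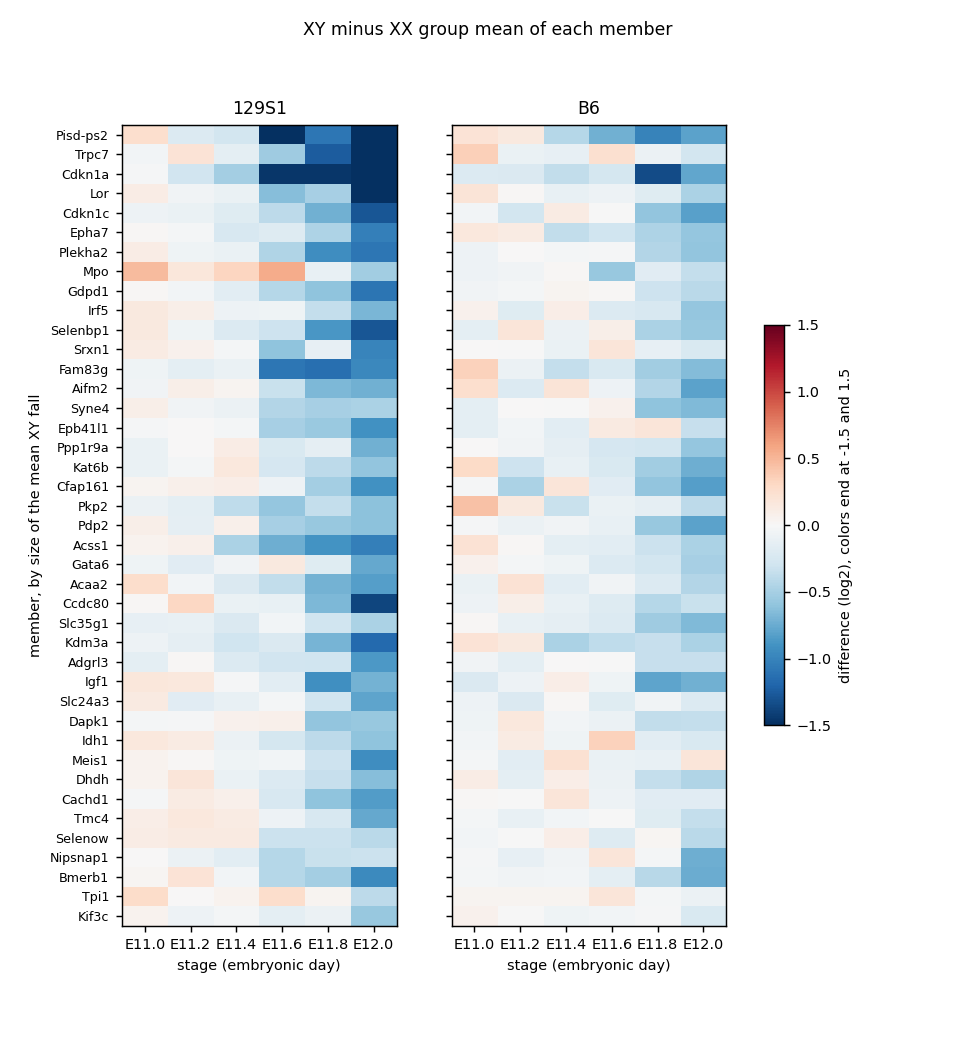
XY minus XX group means on the log2 scale (color) for each of the 41 genes (rows, ordered by the mean XY fall) at each stage (columns) in 129S1 and B6. The median difference at E11.6 is -0.28 in 129S1 and -0.09 in B6, and at E11.8 it is -0.50 and -0.32. The E11.0 and E12.0 columns were used to choose the genes.

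Averaged over the strains, 4 genes were lower in XY at E11.6 (Pisd-ps2, Cdkn1a, Fam83g and Acss1), against 0.148% of probes, and 25 at E11.8, against 1.51%. All 6 of the genes called in 129S1 at E11.6 were called again at E11.8, namely Pisd-ps2, Cdkn1a, Acss1, Fam83g, Epb41l1 and Pdp2. At E11.8, 5 genes were called in both strains, Cdkn1a, Igf1, Pdp2, Pisd-ps2 and Syne4, which is 5 of the 19 called in 129S1 and 5 of the 7 called in B6. The other B6 calls were Kat6b and Slc35g1. Every XY array lay below every XX array of the same strain for 14 genes in 129S1 and 4 in B6 at E11.6, where 5.31% and 4.5% of all probes did so, and for 30 and 19 genes at E11.8, against 6.12% and 9.71%. The 19 genes called past the test in 129S1 at E11.8 dropped to 12 without 129S1 XY replicate 3 of that stage. The 7 called in B6 at E11.8 dropped to 3 without B6 XX replicate 3 or B6 XY replicate 3, and to 4 without B6 XX replicate 1 or 2. Without 129S1 XY E11.6 replicate 2, 5 genes were called in 129S1 at E11.6, of which 4 were among the 6, and Epb41l1 and Pdp2 were not.

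The change from E11.2 to E11.8 was then tested within each sex. Averaged over the strains, 29 of the 41 genes fell in XY, against 1.19% of all probes. In 129S1 alone 23 genes fell (0.584% of probes) and in B6 alone 7 (0.183%). In XX gonads 1 gene fell, against 0.545% of probes, and 0 rose, against 206 of the 25697 probes. At an unadjusted p under 0.05, 8 were lower in XX and 3 higher, Igf1 (0.31), Selenbp1 (0.29) and Bmerb1 (0.23). The gene that fell past the test in XX was Slc24a3, a sodium, calcium and potassium exchanger. Its change was -0.32 ± 0.07 (SE, limma adjusted p = 0.0128) in XX and -0.30 ± 0.07 (0.00596) in XY, so that between these stages it fell in both sexes. Srxn1 had values of -0.41 in XX (0.0538) and -0.57 in XY (5.7e-04). The change differed between the sexes past the test for 15 genes, against 0.49% of probes, and in all 15 it was more negative in XY. With the replicate number as a block in the fit, Gdpd1, Dhdh and Bmerb1 missed the threshold and 12 passed. That count was 8 without 129S1 XX E11.2 replicate 3, without 129S1 XY E11.8 replicate 3, without B6 XX E11.2 replicate 3 or without B6 XX E11.8 replicate 1, and 9 without B6 XY E11.8 replicate 3. Without B6 XY E11.2 replicate 1, 32 genes fell in XY and 16 differed in their change between the sexes.

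**Figure D2:**
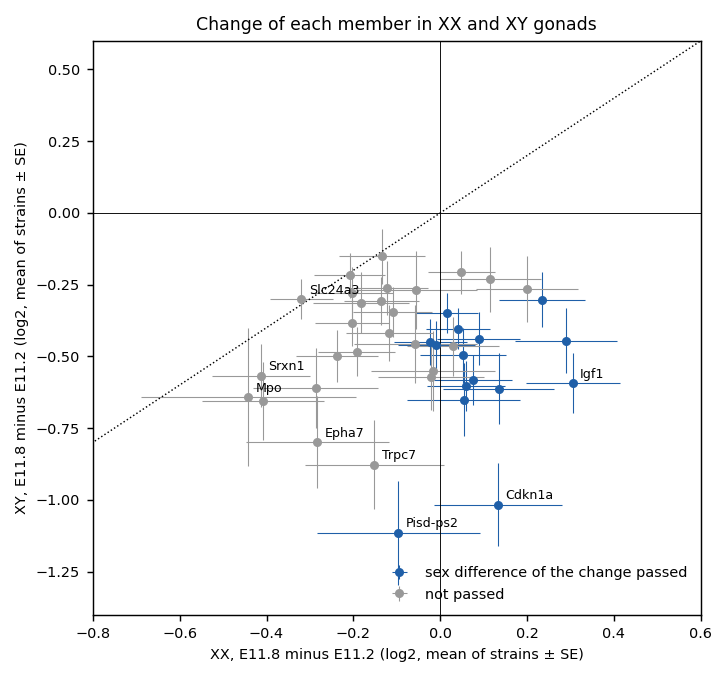
Change from E11.2 to E11.8 (log2, mean of the strains, bars are limma standard errors) in XX gonads (x axis) and XY gonads (y axis) for the 41 genes. Blue points are the 15 genes whose change differed between the sexes past an adjusted p of 0.05, with differences between the XY and XX changes of -0.37 to -1.15.

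The stage at which each fall began was read in each strain as the first stage from which the XY mean stayed at least 0.32 on the log2 scale (1.25-fold) below the XY mean at E11.0 through E12.0. In 129S1 the fall began at E11.4 for 3 genes (Cdkn1a, Syne4 and Slc35g1), at E11.6 for 20, at E11.8 for 17 and at E12.0 for 1, Gata6. In B6 it began at E11.6 for 4 genes (Epha7, Ppp1r9a, Kat6b and Slc35g1), at E11.8 for 19 and at E12.0 for 13, and for 5 (Epb41l1, Idh1, Meis1, Tmc4 and Tpi1) this level was not reached. By E11.6 the fall had begun for 23 genes in 129S1, where 1.07% of all probes met the same condition, and for 4 in B6, where 0.79% did. The arrays that chose the genes also set this condition, so nothing is read from the gap between the counts and these shares. The stage was read from XY alone, and for 4 of the 23 (Slc35g1, Dapk1, Epha7 and Ppp1r9a) the 129S1 XX mean had by then dropped as far below its own E11.0 mean. Slc35g1 stood at -0.50 in XY and -0.40 in XX at E11.4, and Dapk1 at -0.36 and -0.46 at E11.6. For other genes the 129S1 XX mean at E11.6 was above its E11.0 mean, by 0.455 for Fam83g, 0.384 for Pisd-ps2 and 0.329 for Acss1. Their XY changes were -0.565, -1.422 and -0.458. Read against XX of the same stage, the fall had begun by E11.6 for 17 genes in 129S1 and 2 in B6. In that reading Pisd-ps2, Kdm3a, Adgrl3 and Slc35g1 began earlier in B6, and the other genes began earlier in 129S1, at the same stage, or only in 129S1. Read against the XY mean at E11.0, the fall began earlier in 129S1 for 28 genes, which include the 5 that did not reach the level in B6. It began at the same stage for 13, and for 0 genes earlier in B6. When the beginning was placed at the midpoint of each gene's own fall, 20 began earlier in 129S1, 17 at the same stage and 4 earlier in B6. Without B6 XY E11.0 replicate 3 the B6 count by E11.6 was 8, and without 129S1 XY E11.6 replicate 2 the 129S1 count was 31.

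**Figure D3:**
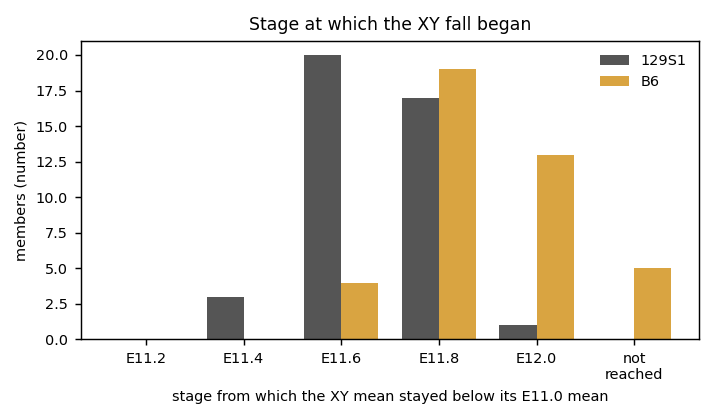
Number of the 41 genes (y axis) by the stage (x axis) from which the XY mean stayed at least 1.25-fold below its E11.0 mean in the same strain, in 129S1 (gray) and B6 (gold). Most falls began at E11.6 (20) or E11.8 (17) in 129S1 and at E11.8 (19) or E12.0 (13) in B6, and 5 did not reach this level in B6.

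Whether the sex difference itself differed between the strains was tested in the same fit. At E11.6 it was larger in 129S1 past the test for 0 of the 41 genes, against 0% of probes, with 13 genes at an unadjusted p under 0.05 in that direction. At E11.8 it was larger for 0 genes, against 0.00778% of probes, with 7 at an unadjusted p under 0.05. The median over the 41 genes of the sex difference in B6 minus that in 129S1 was 0.26 at E11.6 and 0.13 at E11.8. The 3 smallest p-values were those of Epb41l1 at E11.8 (0.74 ± 0.17, adjusted p = 0.292), Cdkn1a at E11.6 (1.19 ± 0.30, 0.441) and Epb41l1 at E11.6 (0.64 ± 0.17, 0.559). No single gene was shown to part later in B6 than in 129S1.

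Among the inhibitors of the cell cycle, Cdkn1a encodes p21, a CDK inhibitor and target of p53. At E11.4, Cdkn1a read 10.87, 10.72 and 10.62 in 129S1 XX and 10.51, 10.03 and 10.16 in 129S1 XY. At E11.6 the XX arrays read 11.08, 10.92 and 10.90 and the XY arrays 9.74, 9.33 and 9.45. The 129S1 groups were apart at both stages, and the XY minus XX difference was -0.51 at E11.4 (limma adjusted p = 0.997) and -1.46 ± 0.21 at E11.6 (2.5e-05). In B6 the E11.6 arrays read 9.83, 9.97 and 9.52 in XX and 9.54, 9.57 and 9.41 in XY, which overlapped. At E11.8 the 129S1 arrays read 10.62, 10.57 and 10.72 in XX and 9.19, 9.48 and 8.85 in XY, and the B6 arrays 10.34, 10.16 and 10.17 in XX and 9.07, 9.19 and 8.37 in XY. The groups were apart in both strains, by -1.46 ± 0.21 (8.6e-06) in 129S1 and -1.35 ± 0.21 (5.5e-05) in B6. The other probes of Cdkn1a changed by -0.67 and -0.85 in XY from E11.0 to E12.0.

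Cdkn1c encodes p57, a maternally expressed imprinted CDK inhibitor, and had the highest mean level of the 41 genes, 14.55. At E11.8, Cdkn1c read 14.75, 14.69 and 14.84 in 129S1 XX and 14.16, 14.07 and 13.89 in 129S1 XY, a difference of -0.72 ± 0.17 (adjusted p = 0.00914). In B6 the XX arrays read 14.94, 14.81 and 15.18 and the XY arrays 14.64, 14.16 and 14.37, at -0.59 (0.0613). The groups did not overlap in either strain. Dapk1, a calmodulin-dependent kinase linked to cell death, differed by -0.59 ± 0.14 (0.0121) in 129S1 at E11.8, and its value in B6 was -0.36 (0.235). Of the 19 other measured genes in a list of CDK inhibitors and p53 targets, 2 were lower in 129S1 XY at E11.8, Sesn1 (-0.40) and Trp53inp1 (-0.43), and 2 in B6, Sesn1 (-0.46) and Cdkn1b (-0.70), which encodes p27, with 0 higher in either strain. The third member of that list among the 41 was Aifm2. Among 17 other measured imprinted genes, Phlda2 was lower in XY at E11.8, by -1.37 (4.5e-04) in 129S1 and -1.08 (0.0109) in B6. Of 17 measured genes of cell division, 0 were called in either direction at E11.8 in either strain.

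**Figure D4:**
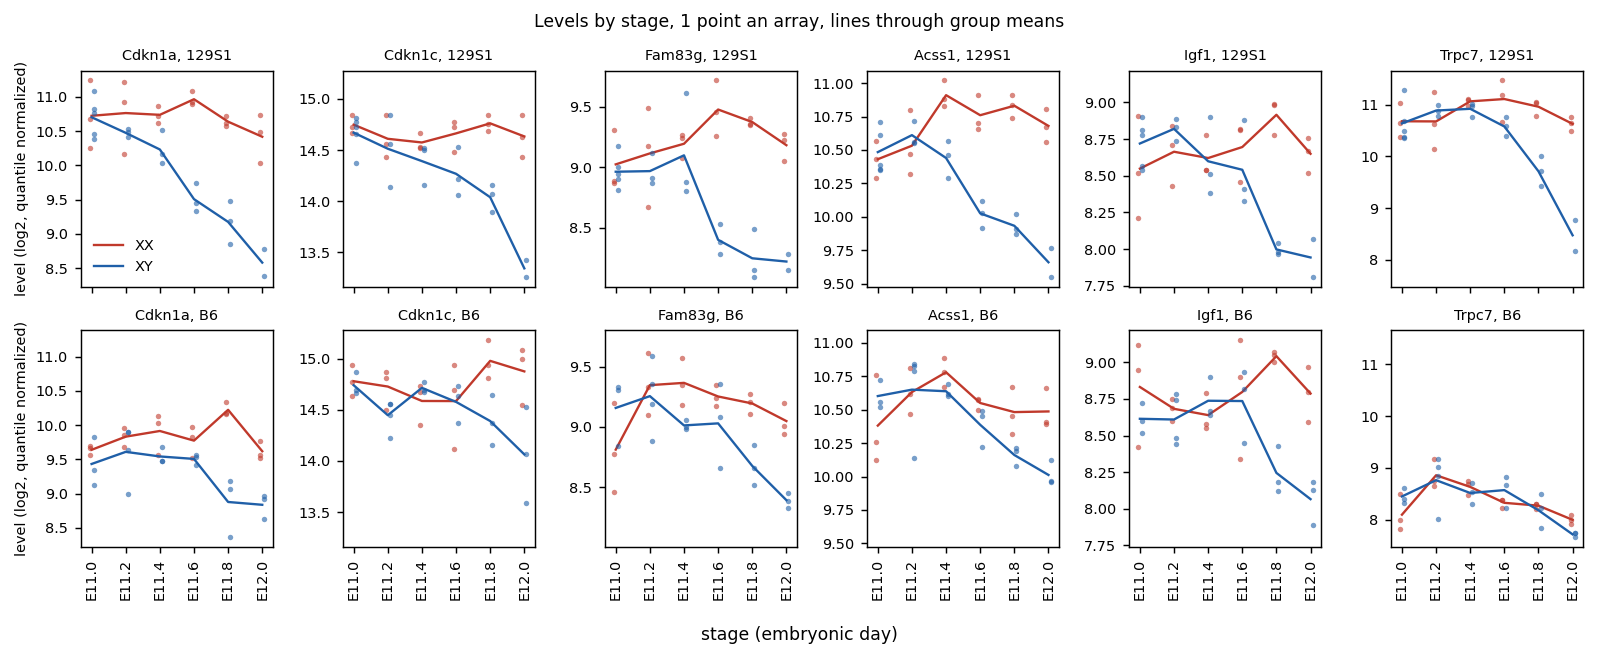
Level (log2, y axis) of 6 of the genes at each stage (x axis) in 129S1 (top) and B6 (bottom). Points are single arrays and lines join group means, XX in red and XY in blue. XY arrays lie below all XX arrays at E11.6 in 129S1 for Cdkn1a, Fam83g and Acss1, and at E11.8 in both strains for Igf1.

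Genes of energy and lipid metabolism made up 8 of the 41, and 5 of the 8 fell in XY between E11.2 and E11.8. Acss1, the mitochondrial acetyl-CoA synthetase, read 10.66, 10.70 and 10.91 in 129S1 XX at E11.6 and 9.92, 10.03 and 10.12 in XY, a difference of -0.73 ± 0.13 (adjusted p = 4.9e-04). At E11.8 it was -0.90 (6.2e-06) in 129S1 and -0.32 (0.255) in B6. The B6 XY arrays at E11.8, at 10.19, 10.21 and 10.08, were all below the B6 XX arrays at 10.45, 10.67 and 10.32. Pdp2, a phosphatase that activates pyruvate dehydrogenase, differed at E11.6 in 129S1 by -0.50 ± 0.12 (0.0393) and at E11.8 by -0.57 (0.00528) in 129S1 and -0.57 (0.00667) in B6. Its step from E11.4 to E11.6 in 129S1 XY gonads, -0.54 ± 0.12 (0.0415), was among 3 that passed, with those of Pisd-ps2 (-1.32 ± 0.27, 0.0111) and Epb41l1 (-0.53 ± 0.12, 0.0438), against 0.035% of probes.

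Acaa2, the thiolase of mitochondrial fatty acid oxidation, read 11.29, 11.01 and 11.12 in 129S1 XX and 10.12, 10.65 and 10.51 in XY at E11.8, without overlap. The difference was -0.71 ± 0.17 (adjusted p = 0.0148), and in B6 it was -0.20 (0.686). Its 3 other probes fell by 0.74, 0.69 and 0.57 in XY from E11.0 to E12.0. Of 18 other measured genes of fatty acid oxidation, 1 was lower in XY at E11.8 in each strain, Cpt2, which takes part in the import of fatty acids into mitochondria, at -0.43 (0.0129) in 129S1 and -0.40 (0.0333) in B6. Gdpd1, a phosphodiesterase of glycerophospholipids, fell in XY by 0.45 (2.1e-04) from E11.2 to E11.8, and differed by -0.61 ± 0.12 (0.00121) from XX in 129S1 at E11.8. Dhdh, a dihydrodiol dehydrogenase, fell in XY by 0.35 (8.0e-04). Idh1, the cytosolic NADP-dependent isocitrate dehydrogenase, changed in XY by -0.46 (0.0501), and the mitochondrial protein Nipsnap1 by -0.28 (0.0882), neither past the test.

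Tpi1, the triosephosphate isomerase of glycolysis, read 13.35, 13.02 and 13.01 in 129S1 XX and 12.91, 13.92 and 13.34 in XY at E11.6, where the XY minus XX difference was 0.26 (adjusted p = 0.817), and at E11.8 it was 0.04 (0.994). The highest of these XY values came from replicate 2. Without it no XY value was above the highest XX value, but the groups still overlapped. The 28 measured genes of hypoxia and glycolysis include Tpi1 and Kdm3a. Their mean in 129S1 XY arrays at E11.6 ranged from 9.64 to 10.46, against 9.56 to 9.71 in XX. Its part in the Tpi1 values was not tested. Of the other 26 genes of that list, 1 was lower (Ndrg1, -0.81, 0.0458) and 1 higher (Ddit4, 0.71, 0.0161) in 129S1 XY at E11.8, and 0 were called in B6. Kdm3a, a histone demethylase that in mice is needed for normal Sry expression and is also induced by hypoxia, fell in XY by 0.55 (0.0119) from E11.2 to E11.8. At E11.8, Kdm3a read 11.16, 11.45 and 11.69 in 129S1 XX and 10.70, 10.92 and 10.57 in XY, without overlap, at -0.70 (0.0622).

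Of 4 redox and selenium genes, 3 fell in XY between E11.2 and E11.8. Selenbp1, a selenium-binding methanethiol oxidase, read 10.60, 10.72 and 10.65 in 129S1 XX and 9.97, 9.91 and 9.45 in XY at E11.8. The groups were apart, by -0.88 ± 0.17 (adjusted p = 8.2e-04), and the value in B6 was -0.48 (0.173). Aifm2, an oxidoreductase that regenerates coenzyme Q and counters ferroptosis, differed by -0.68 ± 0.15 (0.00585) in 129S1. Srxn1, which encodes sulfiredoxin, read 8.52, 8.62 and 8.42 in 129S1 XX and 7.84, 7.72 and 8.17 in XY at E11.6, a difference of -0.61 (0.0605), and at E11.8 the difference was -0.13 (0.972). Selenow, which encodes selenoprotein W, changed in XY by -0.27 (0.429). Of 14 other NRF2 targets and redox genes, 2 were lower in XY at E11.8 in both strains, Slc7a11 (-0.64 in 129S1 and -0.67 in B6), which imports cystine, and Tkt (-0.87 and -0.60), a transketolase, and Me1 was higher in 129S1 (1.0).

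Of 5 regulators of transcription and chromatin, 0 were lower in 129S1 XY at E11.6 or E11.8 and 1 in B6 at E11.8, while 3 passed at E11.8 in the mean of the strains. Kat6b, a histone acetyltransferase, differed in B6 at E11.8 by -0.53 ± 0.13 (adjusted p = 0.0151), with XX arrays at 10.76, 10.83 and 11.04 and XY arrays at 10.35, 10.31 and 10.39. In 129S1 the difference was -0.39 (0.134). The 3 other Kat6b probes, with mean levels of 7.47 to 7.55, changed by -0.07 to 0.06 in XY from E11.0 to E12.0. Gata6, a zinc finger factor of the early gonad, reached the 1.25-fold level only at E12.0 in both strains, and its 129S1 XY arrays read 11.94, 12.08 and 11.83 at E11.8 and 10.98 and 11.67 at E12.0. Gata6 changed in XY by -0.31 (0.112) from E11.2 to E11.8, the homeobox gene Meis1 by -0.26 (0.137) and the interferon regulatory factor Irf5 by -0.21 (0.146). In B6 alone, Meis1 changed by 0.01 in XY over those stages. From E11.0 to E12.0 it changed by -0.25 in XY and -0.46 in XX in B6, and by -0.99 and -0.01 in 129S1. Irf5 passed at E11.8 in the mean of the strains, at -0.30 (0.014). Of 15 other measured genital ridge genes, 1 was lower in XY at E11.8 in each strain, Podxl in 129S1 (-0.79, 0.00527) and Lhx9 in B6 (-0.73, 0.0328). Of 22 other interferon and innate signaling genes, Isg15 was lower in B6 (-0.59, 0.0396) and 0 in 129S1.

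Among ligands, receptors and adaptors, all 5 fell in XY from E11.2 to E11.8. Igf1, the secreted insulin-like growth factor, read 8.82, 8.81 and 8.46 in 129S1 XX and 8.33, 8.88 and 8.41 in XY at E11.6, which overlapped. The value of 8.88 came from replicate 2, and without that array the XY values lay below those of XX. At E11.8, Igf1 read 8.98, 8.99 and 8.78 in 129S1 XX and 8.04, 7.97 and 7.98 in XY, and 9.05, 9.07 and 9.0 in B6 XX and 8.43, 8.12 and 8.18 in XY. The groups were apart in both strains, by -0.92 ± 0.15 (adjusted p = 1.5e-04) and -0.80 ± 0.15 (0.00157). Its change between E11.2 and E11.8 differed between the sexes by -0.90 ± 0.15 (2.0e-04), the smallest p of the 41. Among the 17 other measured genes of insulin and IGF signaling, Igfbp2, which binds IGFs, was lower in XY at E11.8 in both strains (-0.82 and -0.83, both 0.0416), Igfbp5 was lower in 129S1 (-0.53), and Irs2, an adaptor of the insulin receptor, was higher in both (0.63 and 0.68).

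Fam83g, which encodes PAWS1, a partner of casein kinase 1 in Wnt signaling, read 9.26, 9.46 and 9.72 in 129S1 XX and 8.38, 8.28 and 8.53 in XY at E11.6, without overlap. The difference was -1.08 ± 0.18 (adjusted p = 4.3e-04). By E11.8 it measured -1.13 (8.8e-05) in 129S1, and in B6 it was -0.52 (0.189). Plekha2, an adaptor that binds phosphoinositides, read 10.61, 10.69 and 10.93 in 129S1 XX and 9.82, 9.79 and 9.80 in XY at E11.8. The difference was -0.94 ± 0.13 (3.1e-06) in 129S1 and -0.44 (0.0702) in B6, with no overlap of the arrays in either strain. Epha7, a receptor of ephrins, fell in XY by 0.80 (8.9e-04), and at E11.8 its sex difference was -0.47 (0.606) in 129S1 and -0.46 (0.408) in B6. Adgrl3, the adhesion receptor latrophilin 3, fell in XY by 0.50 (3.1e-04). The XX changes of Epha7 and Adgrl3 over the same stages were -0.28 (0.524) and -0.24 (0.278). For neither gene was the change shown to differ between the sexes (0.406 and 0.496).

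Trpc7, a cation channel, lay at different levels in the strains from the start, at 10.36 to 11.29 in 129S1 XY and 8.32 to 8.62 in B6 XY at E11.0. At E11.8, Trpc7 read 11.05, 10.79 and 11.04 in 129S1 XX and 10, 9.72 and 9.42 in XY, a difference of -1.25 ± 0.23 (adjusted p = 4.6e-04). In B6 the arrays read 8.31, 8.30 and 8.20 in XX and 8.49, 7.83 and 8.23 in XY and overlapped, at -0.09 (0.916). The 129S1 groups were apart, whereas the strain difference of this sex difference, 1.16 ± 0.32, did not pass (0.646). Of the other channels and transporters, Cachd1, related to the auxiliary subunits of calcium channels, differed in 129S1 by -0.60 ± 0.10 (2.6e-04), and its other probe, with a mean of 7.25, changed by 0.12 in XY from E11.0 to E12.0. Slc35g1, a solute carrier, differed in B6 by -0.53 (0.041), a call lost without any 1 of the 6 B6 arrays of that stage. Tmc4, a transmembrane channel-like protein, fell in XY by 0.35 (0.0132). Its XX change was -0.11 (0.687), and the difference between the changes did not pass (0.527).

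Of 6 genes of the cytoskeleton, junctions and cilia, 4 fell in XY. Epb41l1, a protein 4.1 family member that ties spectrin and actin to the membrane, read 8.88, 8.99 and 8.66 in 129S1 XX and 8.36, 8.25 and 8.41 in XY at E11.6, without overlap. The difference was -0.50 ± 0.12 (adjusted p = 0.0297) at E11.6 and -0.56 (0.005) at E11.8, whereas in B6 it was 0.13 (0.998) and 0.18 (0.574). Of its other probes, the brighter, with a mean of 8.63, changed by -0.78 in XY from E11.0 to E12.0 and the dimmer by 0.04. Syne4, a nesprin that links the nucleus to kinesin, differed at E11.8 in both strains, by -0.49 (0.0434) and -0.61 (0.00777). Ppp1r9a, which encodes the actin-binding neurabin, and Pkp2, the desmosomal plakophilin 2, fell in XY by 0.38 (0.00224) and 0.65 (0.00152). Their XX changes were -0.20 (0.303) and -0.41 (0.179), and the change was not shown to differ between the sexes for either (0.64 and 0.714). The kinesin Kif3c changed by -0.22 (0.149) in XY and by -0.21 (0.267) in XX. The cilia protein Cfap161 was past the test at E11.8 in the mean of the strains, at -0.55 (0.00196).

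Pisd-ps2, annotated as a transcribed pseudogene, had the largest mean fall of the 41 from E11.0 to E12.0. At E11.6, Pisd-ps2 read 11.09, 10.69 and 11.66 in 129S1 XX and 9.05, 9.66 and 10.06 in XY. The groups were apart, by -1.56 ± 0.27 (adjusted p = 4.3e-04), and at E11.8 the difference was -1.08 (0.0166) in 129S1 and -1.0 (0.039) in B6. The B6 call was lost when any 1 of the 6 B6 arrays of E11.8 was left out. Its sequence is related to that of a parent gene and other copies, so which copy the probe reads is uncertain. Lor, which encodes loricrin of the cornified envelope of skin, read 12.22 to 12.66 in 129S1 XY at E11.0 and 10.41 and 10.68 at E12.0. It fell in XY by 0.61 (0.00457) from E11.2 to E11.8, and the difference from XX at E11.8 was -0.50 (0.383) in 129S1 and -0.19 (0.76) in B6. Lor changed in XX by -0.29 (0.438) from E11.2 to E11.8, and the change was not shown to differ between the sexes (0.608). Ccdc80, a secreted matrix protein, differed in 129S1 at E11.8 by -0.67 ± 0.18 (0.0391), and Bmerb1 by -0.51 ± 0.14 (0.0489), a call that leaving out 1 array ended for 36 of the 49 arrays.

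Mpo, the myeloperoxidase of granulocytes and their precursors, had the lowest mean level of the genes, 7.97. At E11.6 it read 7.36, 8.39 and 8.22 in 129S1 XY and 7.34, 7.65 and 7.32 in XX, which overlapped, and its XY change from E11.2 to E11.8 was -0.64 ± 0.24 (limma adjusted p = 0.174). Its XX change was -0.44 (0.506), and the difference between the changes was -0.20 (0.891). The mean of 14 measured macrophage markers in 129S1 XY gonads was 8.05 (range 7.86 to 8.22) at E11.0 and 7.59 (7.56 to 7.62) at E12.0, against 7.89 and 7.87 in XX. In B6 it was 8.12 and 8.02 in XY and 8.40 and 8.06 in XX. At E11.8, 0 of the 14 markers differed between the sexes in either strain, and their part in the values of Mpo and Irf5 was not tested. Over the same day the mean of 30 Sertoli and male pathway genes went from 8.01 to 9.73 in 129S1 XY and from 7.92 to 9.29 in B6 XY, and its part in the falls was not tested. At E11.8, 0 of 18 endothelial, 0 of 12 interstitial and 0 of 11 mesonephric markers were called in either strain. Of 23 measured pre-granulosa and female pathway genes, 10 were lower in XY in 129S1 and 6 in B6 at that stage, with 1 higher in each. Of 24 germ cell genes, 0 were called in 129S1 and 1 was lower in XY in B6. Their part in the falls was not tested.

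Of the 41 genes, 10 passed neither the sex difference in a strain at E11.6 or E11.8, nor the change in XY, nor its difference between the sexes, namely Cfap161, Gata6, Idh1, Irf5, Kif3c, Meis1, Mpo, Nipsnap1, Selenow and Tpi1. Their XY changes from E11.2 to E11.8 lay between -0.15 (Tpi1) and -0.64 (Mpo). Another 10 fell in XY past the test without a sex difference in either strain at E11.6 or E11.8. Of 35 other probes to 17 of the genes, 31 changed below 0 in XY from E11.0 to E12.0. All 12 with a mean of 8 or more changed by -0.3 or less, and 3 of the 23 dimmer ones did. In XX, 4 of the 12 brighter probes lay outside the limits set for the genes, those of Epb41l1 (-0.31), Pkp2 (-0.29), Dapk1 (-0.33) and Kdm3a (0.37).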

How the data were processed

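Gonad RNA was read on Illumina MouseRef-8 arrays. The authors deposited log2 values, quantile normalized with beadarray after GenomeStudio, with R 2.12.0 in the submitters' notes, and these were used as they stood. Raw intensities, whose columns no label pairs with a sample, were left out, and with them detection calls and slide. Of 25697 probes, 23962 were matched to RefSeq by gene identifier. Groups came from the sample titles. Members followed the rule in the opening. Members, gene lists and functional classes were chosen with earlier results of these data known. The 49 arrays of E11.2 to E11.8 were fitted with 16 group means in limma 3.58.1 (R 4.3.3), with no filter, and p-values adjusted over all probes by the Benjamini-Hochberg method at 0.05. Values after ± are limma standard errors. Named genes were the largest falls, up to 4 of each class, the earliest calls, list members, genes at the limits and those whose call depended on the processing. Tables and plots used Python 3.11.15 and matplotlib 3.10.9. Tested on simulated data with known changes in a set of the 25697 probes, a difference of 1 was found in 93% and of 0.5 in 40% for 129S1 at E11.6. Arrays give no depth, and mostly 3 a group limit the precision. Alternatives covered probe filters, array weights, the fitted arrays, a replicate block, the choice limits and leaving out each array.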

Additional observations from a re-analysis of the deposited data

Results flagged for a closer look

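The change from E11.2 to E11.8 differed between XY and XX gonads, mean of the strains, in 15 of the 41 genes (limma, adjusted over all probes). The XY minus XX difference of the change was -1.02 for Pisd-ps2 (adjusted p = 0.0305), -1.15 for Cdkn1a (adjusted p = 5.1e-04) and -0.66 for Plekha2 (adjusted p = 0.00105). The XY minus XX difference of the change was -0.43 for Gdpd1 (adjusted p = 0.0488), -0.74 for Selenbp1 (adjusted p = 0.00716) and -0.70 for Fam83g (adjusted p = 0.0307). The XY minus XX difference of the change was -0.53 for Syne4 (adjusted p = 0.0267), -0.45 for Pdp2 (adjusted p = 0.0448) and -0.66 for Acss1 (adjusted p = 0.00105). The XY minus XX difference of the change was -0.75 for Ccdc80 (adjusted p = 0.0156), -0.90 for Igf1 (adjusted p = 2.0e-04) and -0.55 for Dapk1 (adjusted p = 0.0249). The XY minus XX difference of the change was -0.37 for Dhdh (adjusted p = 0.0465), -0.45 for Cachd1 (adjusted p = 0.0113) and -0.54 for Bmerb1 (adjusted p = 0.0318). With the replicate number as a block, Gdpd1 (0.0678), Dhdh (0.0717) and Bmerb1 (0.0554) missed the threshold.

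In 4 of 82 checks of a gene within a group of 4 or 5 arrays, 1 array stood apart, and chance flags about 1 in 20. All 4 were the same array, B6 XY E11.2 replicate 1. It read 10.67 for Plekha2, where the other 3 read 10.97 to 10.99. It read 10.14 for Acss1, where the other 3 read 10.79 to 10.84. It read 11.08 for Acaa2, where the other 3 read 11.65 to 11.76. It read 10.96 for Selenow, where the other 3 read 10.19 to 10.25. Its root mean square deviation from its group over all probes, 0.20, was the largest of the 49 arrays, whose median was 0.123. Without it, 32 genes fell in XY between E11.2 and E11.8 in place of 29, and 16 in place of 15 differed in their change between the sexes.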

How the results depend on the processing

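The number of genes found by the rule, 41, was 25 when every probe of a gene had to meet the limits and 11 when each strain had to, and 34 to 50 when 1 array was left out. Genes whose XY fall had begun by E11.6 numbered 8 in 129S1 (from 23) and 0 in B6 (from 4) at a level of log2 of 3/2, and 17 and 2 against XX of the same stage. Leaving out 1 array gave 19 to 31 in 129S1 and 4 to 8 in B6. The B6 count at E11.8, 7, was 11 with array weights and 12 with the first residual component, which held 27.3% of the variance within groups, as a covariate, and 3 to 9 with 1 array left out. Leaving out 1 array gave 4 to 7 at E11.6 and 12 to 21 at E11.8 in 129S1, 8 to 16 for the sex difference of the change, and 27 to 32 for the XY fall. The causes were not tested.

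With the replicate number as a block the counts were 6 and 19 in 129S1 at E11.6 and E11.8, 9 in B6 at E11.8, 12 for the sex difference of the change and 30 for the XY fall. The deviations of same-numbered XX and XY arrays correlated above 0.1 for every pair in 129S1 at E11.2 (lowest 0.127) and E11.6 (lowest 0.152), but not at the other stages or in B6, where the lowest was -0.164. The mean over same-numbered arrays from E11.2 to E11.8 was 0.304, 0.188, 0.335 and 0.154 in 129S1, and 0.150, 0.059, 0.229 and -0.028 in B6. Because not every pair correlated, the numbers were not taken as pairing the arrays. The 129S1 means, and those of B6 at E11.2 and E11.6, are a hint of pairing, which the main fit does not use. The block ended the call of Bmerb1 (adjusted p = 0.052) and made that of Kdm3a (0.0165) at E11.8 in 129S1, and made those of Cdkn1c (0.0251) and Cfap161 (0.0346) in B6. For the sex difference of the change it ended those of Gdpd1, Dhdh and Bmerb1, and it made that of Meis1 (0.0302) for the XY fall. Bmerb1 at E11.8 in 129S1 also missed the threshold under 3 other alternatives. Epb41l1 and Pdp2 at E11.6, Syne4 at E11.8 in 129S1 and Slc35g1 at E11.8 in B6 missed it under 1 or 2 alternatives each. Leaving out 1 array of the groups compared also ended calls, in 129S1 at E11.8 for Syne4 (any of the 6), Ccdc80 (any XX array or XY replicate 3), Dapk1 (XX replicates 1 and 2, XY replicates 2 and 3), Pisd-ps2 (XX or XY replicate 3), Acaa2 (XX or XY replicate 1), Aifm2 (XX replicate 1), Pdp2 (XY replicate 1), and Cdkn1c and Epb41l1 (XY replicate 3). At E11.6 it ended those of Pdp2 (any XY array, XX replicates 2 and 3) and Epb41l1 (XX or XY replicates 1 and 2). In B6 at E11.8 it ended those of Kat6b (any XY array or XX replicate 3), Pdp2 (XX replicates 2 and 3, XY replicate 3) and Syne4 (XX replicate 1). No direction reversed. Slide could not be fitted.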
